A study of Homo sapiens with 12 samples.

Results

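The difference between the H2O2 responses of ATG7 knockout (KO) and wild type (WT) HLE-B3 cells was measured for every gene that could be tested. HLE-B3 is an immortalized human lens epithelial cell (LEC) line. The 12 RNA-seq libraries formed 4 groups with 3 biological replicates each: untreated WT cells collected at 0 h, WT cells after 12 h in 200 μM H2O2, untreated ATG7 KO cells at 0 h, and ATG7 KO cells after the same 12 h treatment. All 12 libraries entered one fit, and the quantity of interest was the interaction, that is, the response of the KO cells (12 h minus 0 h) minus the response of the WT cells (12 h minus 0 h), on the log2 scale. Members were all genes with enough reads, which came to 16856 of the 58735 genes counted. A gene is called higher when the KO response lay above the WT response and lower when it lay below, each at an adjusted p under 0.01, so a lower gene may still have been induced in both lines. With no untreated 12 h group analysed here, an effect of H2O2 and of time in culture cannot be told apart. The knockout was made with CRISPR/Cas9 and clones were picked one by one, and the labels do not say which clone or clones the libraries came from, so loss of ATG7 and differences between clones cannot be told apart either. In bulk RNA, fewer cells of a kind and less RNA per cell cannot be told apart.

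ATG7 is the enzyme that activates the ubiquitin-like proteins ATG12 and LC3 for conjugation, and the autophagosome membrane does not form normally without it. H2O2 is a cell-permeable oxidant. It damages DNA and proteins and calls up several stress programmes, among them the AP-1 early genes, NF-κB target genes, p53 target genes, the heat shock response, the unfolded protein response and the NRF2 antioxidant genes, all of which have been studied in lens epithelium as the layer that is exposed to peroxide in the aqueous humour. An interaction asks whether such a programme changed with treatment to a different extent when ATG7 was disrupted. It equals the difference between the lines at 12 h minus that at 0 h. A difference that the lines already had without treatment therefore enters it.

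ATG7 transcript was not lower in the KO libraries. Its level was 2.81, 2.64 and 2.21 FPKM (fragments scaled by transcript length and library size) in untreated WT and 3.78, 3.42 and 3.43 FPKM in untreated KO cells, then 1.99, 1.91 and 1.97 FPKM in treated WT and 2.11, 2.12 and 2.35 FPKM in treated KO cells. A small edit leaves most of the transcript in place, so the mRNA level does not check the knockout. The interaction for ATG7 was -0.31 ± 0.14 [-0.26] (log2 difference ± SE) and did not pass (adjusted p = 0.113). Defining lens epithelial markers were sparse in this line. Of 14 such markers, 4 (CDH2, GJA1, VIM and EPHA2) were above 1 FPKM in every library and 8 were below 1 FPKM in every library, with CRYAA, FOXE3, PROX1 and CDH1 at or near 0. PAX6 ranged from 0.51 to 1.35 FPKM and CRYAB from 0 to 1.98 FPKM. The 14 markers summed to 473 to 676 FPKM, with VIM alone at 191 to 373 FPKM. Of 9 fibroblast markers, 5 were above 1 FPKM in every library and 3 were below 1 FPKM in every library. These 9 summed to 266 to 686 FPKM, with COL1A1 alone at 239 to 645 FPKM. None of 8 leukocyte, 7 retinal pigment epithelium, 6 corneal epithelium or 10 lens fibre markers was above 1 FPKM in every library.

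Libraries held 15602183 to 17659496 counted fragments. Untreated KO replicate 1 stood apart: its gene counts gave a chi-square per gene of 77.6 and 75.9 against the other 2 untreated KO libraries, whereas the other pairs of replicates gave 2.08 to 4.41. For that reason each log2 difference between the responses is followed in square brackets by its value without this library, and each list has its count without it.

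Of the 16856 genes tested, 1184 (7.02%) had a higher response and 1182 (7.01%) a lower response in KO cells, and 7175 passed an unadjusted p under 0.05 (edgeR quasi-likelihood test with Benjamini-Hochberg adjustment). Without untreated KO replicate 1, 3122 of 17543 genes (17.8%) were higher and 2852 (16.3%) lower, and the biological coefficient of variation went from 0.12 to 0.0416. Each list count without that library is to be read against these larger shares. Calls went the same way in both fits for 2350 of the 2366 genes, and no gene was called in opposite directions. Leaving out 1 of the WT or treated KO libraries in its place gave 1332 to 1667 calls in all, and leaving out untreated KO replicate 2 or 3 gave 2775 and 2808. With the additional limits of a mean FPKM above 1 in at least 1 group and a log2 difference of at least 1 in size, 325 genes (1.93%) were higher and 546 (3.24%) lower. The median difference over all genes was -0.03 with 12 libraries and -0.01 without that library.

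Taken line by line, 3497 genes (20.7%) rose and 3332 (19.8%) fell with H2O2 in WT cells, and 3308 (19.6%) rose and 3220 (19.1%) fell in KO cells, at the same threshold. Of the 1184 higher genes, the fitted response was below 0 in WT and above 0 in KO cells for 657, above 0 in both lines for 288 and below 0 in both for 239. Of the 1182 lower genes, 572 had a fitted response above 0 in WT and below 0 in KO cells, 305 were above 0 in both and 305 below 0 in both. The lines were also compared at each time. Among the lower genes, 751 were lower in treated KO than in treated WT cells, and 433 were higher in untreated KO than in untreated WT cells. Among the higher genes, 731 were higher in treated KO cells and 398 were lower in untreated KO cells.

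**Figure D1:**
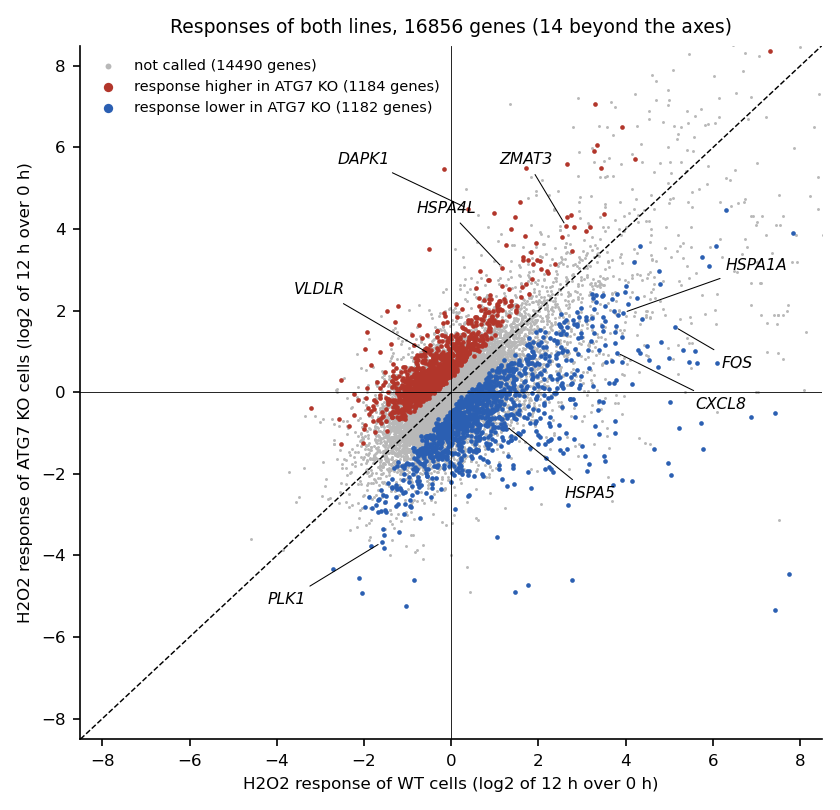
H2O2 response of each of the 16856 genes in WT cells (x axis) and in ATG7 KO cells (y axis), both as log2 of 12 h over 0 h, with equal responses on the dashed line, 1184 higher genes in red, 1182 lower genes in blue and 14 genes beyond the axes. FOS, CXCL8 and HSPA1A lie right of the line with induction in both lines, HSPA5 lies in the quadrant of opposite responses, and PLK1 lies where both lines fell.

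Early genes of the AP-1 and EGR families had weaker responses in KO cells than in WT cells. These genes encode transcription factors and phosphatases that respond within minutes to hours of stress or growth factor signals. Of 32 tested, 23 (71.9%) were lower and 0 higher, against 7.01% and 7.02% of all genes. The median difference was -1.09 against -0.03 over all genes. Leaving out untreated KO replicate 1 gave 28 lower and 1 higher. The median response was 2.14 in WT and 0.89 in KO cells. Of the 23 lower genes, 18 were lower in treated KO than in treated WT cells and 5 were higher in untreated KO cells, so most of the difference lay at 12 h. EGR1, JUNB, JUN, MYC, IER2, IER3, DUSP1, DUSP5 and NR4A1 were among the lower genes.

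FOS (ENSG00000170345, chr14:75278774-75282230, plus strand, GRCh38) encodes a subunit of AP-1. Its level was 0.283, 0.285 and 0.435 FPKM in untreated and 11.5, 9.67 and 14.1 FPKM in treated WT cells, against 0.281, 0.208 and 0.234 FPKM in untreated and 0.848, 0.489 and 0.872 FPKM in treated KO cells. All 3 treated WT libraries were above every other library, and the treated KO libraries were above all untreated libraries. The KO response of 1.61 passed (adjusted p = 0.000633), against a WT response of 5.12. The interaction was -3.51 ± 0.42 [-3.39] (adjusted p = 0.000169). FOSB, another AP-1 subunit, reached 12, 9.53 and 9.57 FPKM in treated WT cells and 1.15, 1.02 and 1.22 FPKM in treated KO cells, from 0.434, 0.421 and 0.517 and 0.393, 0.525 and 0.613 FPKM without treatment. Its difference was -3.36 ± 0.24 [-3.51] (adjusted p = 7.3e-06), and the treated groups did not overlap. EGR3, a zinc finger early gene, rose in WT cells to 3.81, 3.01 and 2.51 FPKM, whereas treated KO libraries held 0.241, 0.251 and 0.51 FPKM, inside the range of untreated libraries for 2 of the 3. The difference was -3.49 ± 0.54 [-3.6] (adjusted p = 0.000767) and the KO response of 0.29 did not pass (adjusted p = 0.571).

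NF-κB target genes and inflammatory cytokines formed the other list with mostly lower members. NF-κB is a dimeric transcription factor held in the cytoplasm by IκB proteins until stress or cytokine signals release it. Of 36 tested, 25 (69.4%) were lower and 0 higher, against 7.01% and 7.02% of all genes, with a median difference of -1.13. The counts became 30 lower and 1 higher without untreated KO replicate 1. Some members had been picked by the study on these same libraries, so the direction of the list is not independent evidence. The median response was 1.77 in WT and 0.63 in KO cells. In contrast to the early genes, 20 of the 25 lower genes were already higher in untreated KO than in untreated WT cells. At 12 h, 11 of the 25 were lower in KO than in WT cells and 7 were higher.

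CXCL8 (ENSG00000169429, chr4:73740506-73743716, plus strand, GRCh38) encodes interleukin 8, a neutrophil attractant. It was at 56.2, 54.4 and 47.3 FPKM in untreated WT and 749, 393 and 431 FPKM in untreated KO cells, and at 729, 762 and 706 FPKM in treated WT and 1058, 1028 and 1017 FPKM in treated KO cells. Every untreated KO library was above every untreated WT library, and the treated KO libraries were the highest of all, although the difference between the treated groups (0.50) did not pass (adjusted p = 0.0442). The response was therefore smaller in KO cells (0.97 against 3.79), with a difference of -2.82 ± 0.26 [-2.47] (adjusted p = 3.47e-05). CSF3, granulocyte colony-stimulating factor, had the same order of groups. It was nearly absent from untreated WT cells (0.103, 0.049 and 0.0507 FPKM) and was at 8.11, 3.82 and 4.26 FPKM in untreated KO cells. Treatment brought it to 16.6, 14.4 and 17.9 FPKM in WT and 85.8, 78.7 and 79 FPKM in KO cells. Its difference was -3.93 ± 0.56 [-3.52] (adjusted p = 0.000479), although treated KO cells held more CSF3 than treated WT cells. TNF was counted 0, 0 and 0 times in untreated WT and 18, 12 and 32 times in treated WT libraries, against 8, 1 and 6 times in untreated KO and 0, 0 and 0 times in treated KO libraries. No fold is given for TNF because a group of each line was at 0.

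The promoters of CXCL8 and 3 other genes on which the results turn are shown here as the 250 bases before the RefSeq start (GRCh38.p14), 5′ to 3′ on the strand of the gene, because their stress or cell cycle motifs can be read directly. In CXCL8 the capitals mark an AP-1 site (TGANTCA) from -137 to -131.
CXCL8 promoter (chr4:73740319-73740568, plus strand): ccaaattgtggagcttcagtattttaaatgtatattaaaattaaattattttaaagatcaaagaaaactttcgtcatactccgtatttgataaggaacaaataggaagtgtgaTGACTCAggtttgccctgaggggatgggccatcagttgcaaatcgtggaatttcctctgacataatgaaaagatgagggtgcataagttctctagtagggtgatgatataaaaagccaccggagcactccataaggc
Of 41 promoters matched to the NF-κB list, 4 (9.76%) held an AP-1 site, against 6.57% of all 35116 promoters, on either strand. Over the other lists with matched promoters the share ran from 0% (early genes among them, 0 of 30) to 25% (matrix proteases and inhibitors, 3 of 12). The site was in 3.72% of promoters of the higher genes and 5.93% of the lower genes, against 4.77% for all genes tested.

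**Figure D2:**
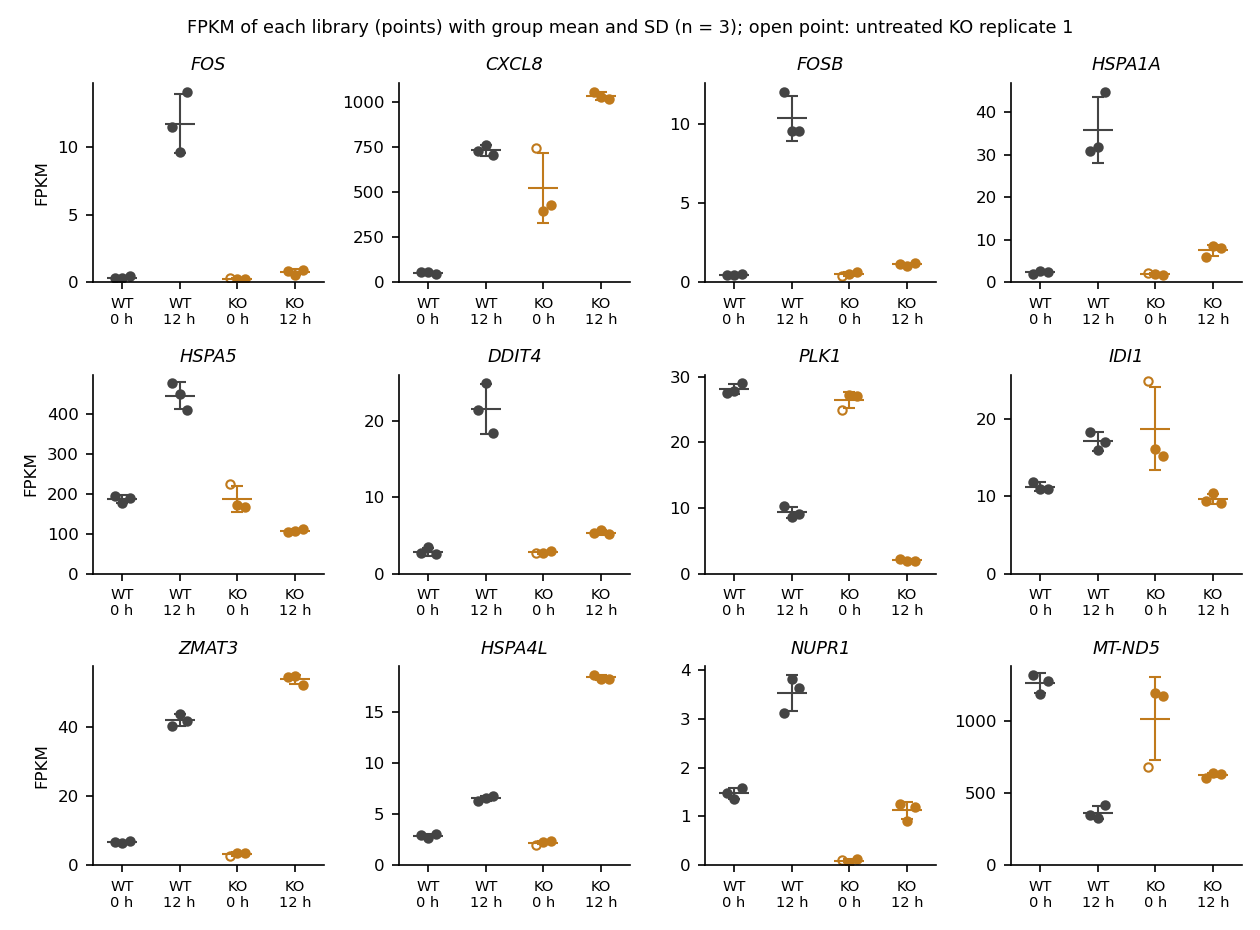
FPKM (y axis, linear, from 0) of 12 genes in the 4 groups (x axis), with 1 point for each library, the group mean as a horizontal line and the SD (n = 3) as a bar, and untreated ATG7 KO replicate 1 as an open point. Treated WT libraries are above treated KO libraries for FOS, FOSB, HSPA1A, HSPA5, DDIT4, PLK1, IDI1 and NUPR1, and below them for CXCL8, ZMAT3, HSPA4L and MT-ND5.

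Inducible heat shock genes had lower responses in KO cells, while a pair of other chaperones had higher responses. Heat shock proteins bind unfolded proteins, and HSF1 drives their genes through heat shock elements. Of 28 tested, 8 (28.6%) were lower and 2 (7.14%) higher, with a median difference of -0.21. Over all genes 7.01% were lower and 7.02% higher, so the higher share is near that of all genes. The counts became 9 lower and 5 higher without untreated KO replicate 1. The lower genes were HSPA6, HSPA1A, HSPA1B, DNAJB1, DNAJB6, HSPB1, BAG3 and HSPE1, of which HSPA6 passed with 12 libraries (adjusted p = 1.72e-05) and missed without that library (adjusted p = 0.0122).

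HSPA1A (ENSG00000204389, chr6:31815464-31817946, plus strand, GRCh38) encodes the inducible HSP70. It was at 1.99, 2.54 and 2.4 FPKM in untreated WT and 2.1, 1.94 and 1.76 FPKM in untreated KO cells. After treatment it was at 30.8, 31.8 and 44.7 FPKM in WT and 5.998, 8.48 and 8.03 FPKM in KO cells, so both lines rose and the treated groups did not overlap. The difference was -1.99 ± 0.26 [-1.93] (adjusted p = 0.000251). HSPA1A and HSPA1B are near-identical copies, so reads may have been split between them and each value is uncertain. DNAJB1, an HSP40 partner of HSP70, went from 61.4, 60.1 and 63.9 to 204, 173 and 215 FPKM in WT cells and from 45.5, 44.9 and 43 to 53.3, 53.5 and 53.9 FPKM in KO cells. Its difference was -1.41 ± 0.12 [-1.39] (adjusted p = 1.73e-05), and its KO response did not pass (adjusted p = 0.0171). The higher genes were HSPA4L, which encodes an HSP110 family nucleotide exchange factor, and HSPA8, the constitutive HSP70. HSPA4L rose from 2.96, 2.68 and 3.004 to 6.28, 6.54 and 6.77 FPKM in WT cells and from 2.003, 2.26 and 2.34 to 18.7, 18.3 and 18.2 FPKM in KO cells, with a difference of 1.88 ± 0.11 [1.82] (adjusted p = 2.05e-06). HSPA8 rose only in the KO line at the threshold used (0.77 against -0.10), and its difference was 0.87 ± 0.13 [0.92] (adjusted p = 0.000506).

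The HSPA1A promoter is shown with a heat shock element (GAANNTTC, from -106 to -99) and CCAAT boxes (from -153 to -149 and from -69 to -65, both on the opposite strand as ATTGG) in capitals, with no overlap between them.
HSPA1A promoter (chr6:31815293-31815542, plus strand): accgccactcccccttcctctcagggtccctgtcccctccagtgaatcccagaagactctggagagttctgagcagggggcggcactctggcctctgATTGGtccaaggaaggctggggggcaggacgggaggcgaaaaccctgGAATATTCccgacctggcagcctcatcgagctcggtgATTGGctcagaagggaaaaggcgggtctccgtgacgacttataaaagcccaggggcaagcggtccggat
A heat shock element was found in 14 of 39 promoters matched to the heat shock list (35.9%) and in 5.78% of all promoters. The share was 3.38% for the higher and 4.94% for the lower genes of the interaction, against 4.28% for all genes tested.

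Several endoplasmic reticulum (ER) stress genes rose in WT cells and did not rise in KO cells. The unfolded protein response raises ER chaperones and degradation factors through the sensors IRE1, PERK and ATF6. Of 24 genes tested, 7 were lower (HSPA5, HERPUD1, XBP1, ERN1, MANF, CALR and SDF2L1) and 2 higher (EDEM1 and ATF6), with a median difference of -0.46. These shares of 29.2% and 8.33% compare with 7.01% and 7.02% of all genes, and the higher share is near the latter. When untreated KO replicate 1 was left out, 14 were lower and 6 higher. The median response was 0.34 in WT and -0.19 in KO cells.

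HSPA5 (ENSG00000044574, chr9:125234853-125241330, minus strand, GRCh38) encodes BiP, the main ER chaperone. It rose in WT cells from 195, 177 and 190.0 to 477, 451 and 409 FPKM and fell in KO cells from 226, 171 and 166 to 104, 106 and 111 FPKM. Untreated libraries of the lines overlapped, and the treated WT libraries were all above and the treated KO libraries all below them. The responses of 1.24 in WT and -0.81 in KO cells each passed in their own line, and the difference was -2.06 ± 0.16 [-1.9] (adjusted p = 1.04e-05). XBP1, the transcription factor spliced by IRE1, rose in WT cells (1.14) and did not pass in KO cells (-0.21), with a difference of -1.35 ± 0.20 [-1.12] (adjusted p = 0.000519). MANF, a secreted ER stress factor, differed by -1.34 ± 0.26 [-1.0] (adjusted p = 0.00248). EDEM1, which takes part in the disposal of misfolded glycoproteins, rose in both lines and more in KO cells, from 10.3, 10.1 and 9.59 to 18.3, 19 and 17.7 FPKM in WT and from 10.7, 11.5 and 12.1 to 32.9, 33.4 and 32.9 FPKM in KO cells. Its difference was 0.66 ± 0.10 [0.62] (adjusted p = 0.000506). ATF6 was called higher (0.54 ± 0.11 [0.48], adjusted p = 0.00299) and lost the call when gene length was corrected for (adjusted p = 0.014).

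The HSPA5 promoter holds 4 CCAAT boxes, in capitals, starting at -216 (as ATTGG), -188, -99 and -66.
HSPA5 promoter (chr9:125241344-125241593, minus strand): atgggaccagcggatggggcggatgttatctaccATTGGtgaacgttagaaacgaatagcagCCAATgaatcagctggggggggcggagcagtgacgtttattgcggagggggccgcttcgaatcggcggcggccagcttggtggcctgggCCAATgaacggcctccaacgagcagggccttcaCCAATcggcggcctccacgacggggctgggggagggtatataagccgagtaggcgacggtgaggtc
At least 1 CCAAT box on either strand was present in 24 of 29 promoters matched to the ER list (82.8%), against 32% of all promoters, and in 31.3% of the higher, 35.4% of the lower and 32.7% of all tested genes' promoters.

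ATF4 target genes split in both directions. ATF4 is the transcription factor through which the integrated stress response raises amino acid synthesis and feedback genes. Of 29 tested, 9 were lower (PPP1R15A, DDIT4, STC2, TRIB3, CEBPB, SLC3A2, CEBPG, PSPH and ATF4) and 4 higher (VLDLR, NUPR1, PSAT1 and ASNS), with a median difference of -0.22. These shares of 31.0% and 13.8% compare with 7.01% and 7.02% of all genes. The counts were 11 lower and 8 higher without untreated KO replicate 1. All 4 higher genes were lower in untreated KO than in untreated WT cells. A C/EBP-ATF composite site (TGATGCAA) was found in 2 of 36 promoters matched to the list (5.56%) and in 0.772% of all promoters.

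DDIT4, an inhibitor of mTORC1 signalling, was at 2.65, 3.43 and 2.49 FPKM in untreated WT and 2.62, 2.7 and 2.97 FPKM in untreated KO cells. Treated WT libraries held 21.4, 24.9 and 18.4 FPKM and treated KO libraries 5.25, 5.68 and 5.13 FPKM, with no overlap. The difference was -1.96 ± 0.20 [-1.99] (adjusted p = 6.99e-05). TRIB3, a pseudokinase that feeds back on ATF4, differed by -1.21 ± 0.19 [-1.06] (adjusted p = 0.000925), and CEBPB, which encodes a C/EBP transcription factor, by -1.08 ± 0.18 [-0.86] (adjusted p = 0.00127). NUPR1, a small stress-induced chromatin protein, was at 1.48, 1.36 and 1.58 FPKM in untreated WT and only 0.107, 0.0495 and 0.114 FPKM in untreated KO cells, and reached 3.12, 3.82 and 3.64 and 1.26, 0.912 and 1.19 FPKM after treatment. KO libraries thus stayed below WT libraries at both times while their response was larger, by 2.36 ± 0.30 [2.49] (adjusted p = 0.000243). VLDLR, a lipoprotein receptor, fell in WT cells from 8.68, 8.17 and 8.62 to 6.13, 6.05 and 6.21 FPKM and rose in KO cells from 2.17, 2.36 and 2.42 to 4.45, 4.54 and 4.33 FPKM. Its difference was 1.41 ± 0.10 [1.37] (adjusted p = 6.13e-06).

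p53 target genes were induced in both lines, with part of the list induced more in KO cells. p53 responds to DNA damage by raising genes of growth arrest, DNA repair and cell death. Of 33 tested, 31 rose in WT and 32 in KO cells. The median responses were 2.66 and 2.77, the median difference was 0.12, and 10 genes were higher and 4 lower. These shares of 30.3% and 12.1% compare with 7.02% and 7.01% of all genes. Without untreated KO replicate 1, 14 were higher and 7 lower, while leaving out 1 of the other libraries gave 6 to 11 higher. Higher genes were RRM2B, ZMAT3, MDM2, PLK2, DDB2, FAS, TP53INP1, FDXR, GDF15 and POLH, and lower genes were PMAIP1, GADD45A, PLK3 and SERTAD1.

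ZMAT3, an RNA-binding p53 target, went from 6.78, 6.39 and 7.04 to 40.4, 43.9 and 41.9 FPKM in WT and from 2.5, 3.52 and 3.58 to 54.5, 54.8 and 52.4 FPKM in KO cells. KO libraries were the lowest without treatment and the highest with it, and the difference was 1.43 ± 0.16 [1.29] (adjusted p = 0.000101). RRM2B, the p53-induced subunit of ribonucleotide reductase, differed by 0.93 ± 0.10 [0.91] (adjusted p = 8.1e-05). GDF15, a stress cytokine, rose by 7.30 in WT and 8.37 in KO cells. Its difference of 1.07 ± 0.24 [1.03] (adjusted p = 0.00598) was no longer called when any of several WT or KO libraries was left out. In the other direction, PMAIP1, which encodes the BH3-only protein NOXA, rose from 30.8, 29.3 and 30.4 to 403, 434 and 364 FPKM in WT and from 62.6, 45.8 and 45.6 to 207, 210.4 and 202 FPKM in KO cells. Its treated groups did not overlap, with a difference of -1.72 ± 0.16 [-1.55] (adjusted p = 3.06e-05). GADD45A, a growth arrest gene, differed by -1.39 ± 0.22 [-1.13] (adjusted p = 0.000753).

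Among 33 genes of the BCL2 family, the inhibitors of apoptosis and the caspases, 6 were lower (PMAIP1, BIRC5, BCL2L11, MCL1, BCL2A1 and BAK1) and 0 higher. The lower share of 18.2% compares with 7.01% of all genes. The members that moved act on both sides of cell death: PMAIP1, BCL2L11 and BAK1 promote it, and MCL1, BCL2A1 and BIRC5 oppose it. The median difference was -0.23, and 13 were lower and 3 higher without untreated KO replicate 1. BIRC5, or survivin, is also a mitotic gene and fell in both lines (-0.77 in WT and -2.24 in KO cells), with a difference of -1.47 ± 0.17 [-1.27] (adjusted p = 0.000131). BCL2A1 was at 7.04, 8.23 and 8.92 FPKM in treated WT and 8.9, 7.04 and 7.62 FPKM in treated KO cells, which overlap, and its lower call (-1.87 ± 0.43 [-1.44], adjusted p = 0.00691) came with a higher untreated level in KO cells (2.67, 1.08 and 1.49 against 0.58, 0.549 and 0.31 FPKM). That call was lost in each fit that left out a WT or a treated KO library.

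**Figure D3:**
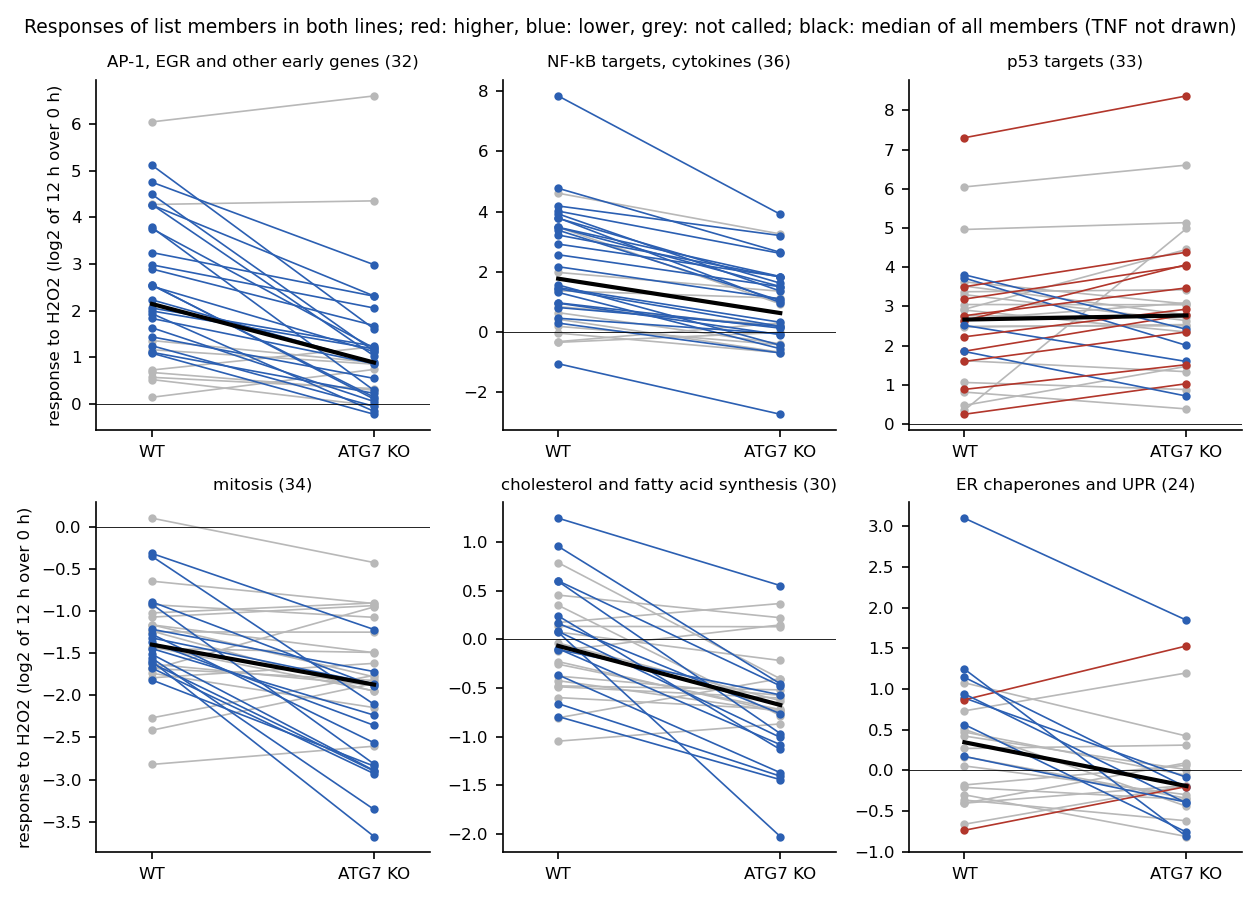
H2O2 response (y axis, log2 of 12 h over 0 h) of each member of 6 gene lists in WT and ATG7 KO cells (x axis), joined by a line that is blue where the member was lower, red where it was higher and grey where it was not called, with the median of all members in black and TNF not drawn. The median falls from 2.14 to 0.89 for the early genes and from 1.77 to 0.63 for the NF-κB list, and goes from 2.66 to 2.77 for the p53 list.

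Genes of mitosis fell with H2O2 in both lines, and 15 of them fell further in KO cells. They encode the cyclins, kinases and spindle proteins made in G2 and M phase. In bulk RNA their level depends on the share of dividing cells and on the RNA per cell, which cannot be told apart here. Of 34 tested, 30 fell in WT and 32 in KO cells, with median responses of -1.40 and -1.87. In the interaction 15 (44.1%) were lower and 0 higher, against 7.01% and 7.02% of all genes, with a median difference of -0.53. Without untreated KO replicate 1, 22 were lower and 3 higher. All 15 lower genes were lower in treated KO than in treated WT cells.

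PLK1 (ENSG00000166851, chr16:23677656-23690367, plus strand, GRCh38), the polo-like mitotic kinase, was at 27.4, 27.8 and 29 FPKM in untreated WT and 25, 27.3 and 27 FPKM in untreated KO cells, and at 10.3, 8.64 and 9.06 FPKM in treated WT and 2.26, 1.98 and 1.97 FPKM in treated KO cells. All treated KO libraries were below all treated WT libraries, and the difference was -2.08 ± 0.12 [-2.12] (adjusted p = 2.05e-06). CDC20, the activator of the anaphase-promoting complex, fell to 50.9, 45.3 and 50.4 FPKM in WT and 15.7, 15.1 and 16.4 FPKM in KO cells, with a difference of -1.90 ± 0.11 [-1.84] (adjusted p = 2.05e-06). CCNB1, the mitotic cyclin B1, showed the same order (27.6, 26.9 and 31 and 10.1, 10.7 and 10.2 FPKM after treatment) and differed by -1.80 ± 0.18 [-1.6] (adjusted p = 4.85e-05).

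In the CCNB1 promoter the capitals mark CCAAT boxes from -87 to -83 and from -55 to -51, the kind of element that is common in G2 and M phase genes.
CCNB1 promoter (chr5:69166900-69167149, plus strand): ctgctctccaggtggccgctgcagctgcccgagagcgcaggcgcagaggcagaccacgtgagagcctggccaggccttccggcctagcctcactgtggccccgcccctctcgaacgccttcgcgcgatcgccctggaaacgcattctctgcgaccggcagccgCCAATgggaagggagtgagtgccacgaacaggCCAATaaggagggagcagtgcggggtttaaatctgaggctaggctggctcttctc
A CCAAT box was present in 27 of 36 promoters matched to the mitosis list (75%), against the 32% of all promoters given above.

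DNA replication and G1/S genes copy the genome in S phase. Of 37 tested, 5 were lower (POLD1, MCM7, MCM3, ORC6 and RFC3) and 0 higher, with a median difference of -0.13. The lower share of 13.5% compares with 7.01% of all genes. In the fit without untreated KO replicate 1, 11 were lower and 6 higher, and leaving out 1 of the other libraries gave 2 to 7 lower. POLD1, the catalytic subunit of DNA polymerase delta, differed by -0.85 ± 0.11 [-0.91] (adjusted p = 0.000319), and MCM7, part of the replicative helicase, by -0.67 ± 0.10 [-0.63] (adjusted p = 0.000437).

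Of the cholesterol and fatty acid synthesis genes, 13 had lower responses in KO cells and 17 were not called. SREBP2 raises these genes together when sterols are short. Of 30 tested, 13 (43.3%) were lower and 0 higher, against 7.01% and 7.02% of all genes, with a median difference of -0.56. Without untreated KO replicate 1, 18 were lower and 0 higher. In WT cells 4 rose and 8 fell, and in KO cells 1 rose and 19 fell. The lower genes included HMGCS1, SQLE, LSS, IDI1, CYP51A1, INSIG1 and SCD.

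IDI1, an isomerase of the mevalonate pathway, rose in WT cells from 11.9, 10.9 and 10.9 to 18.3, 15.9 and 16.9 FPKM and fell in KO cells from 24.9, 16.1 and 15.2 to 9.38, 10.4 and 9.06 FPKM. The treated groups did not overlap, and the difference was -1.57 ± 0.21 [-1.3] (adjusted p = 0.000377). CYP51A1, the lanosterol demethylase, differed by -1.41 ± 0.25 [-1.47] (adjusted p = 0.00171).

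NRF2 target genes showed a lower response for 7 of 35 (MAFF, TRIM16L, ABCC2, ABCC3, SRXN1, OSGIN1 and TRIM16) and a higher response for 1, SLC48A1. These shares were 20% and 2.86%, against 7.01% and 7.02% of all genes. NRF2 is the transcription factor that KEAP1 degrades until oxidants modify it. The median difference was -0.40, and the counts were 13 lower and 5 higher without untreated KO replicate 1. Leaving out 1 of the other libraries gave 4 to 8 lower. ABCC2, an efflux pump for conjugated organic anions, was low throughout and rose in WT cells from 0.205, 0.187 and 0.208 to 0.813, 0.713 and 0.504 FPKM. KO libraries went from 0.201, 0.322 and 0.186 to 0.112, 0.14 and 0.206 FPKM, and the difference was -2.38 ± 0.40 [-2.47] (adjusted p = 0.00128). SLC48A1, a heme transporter, differed by 1.12 ± 0.17 [1.06] (adjusted p = 0.000739). The antioxidant response element (TGACNNNGC on either strand, which can overlap an AP-1 site) was found in 8 of 28 promoters matched to the NRF2 list (28.6%) and in 10.9% of all promoters. Over the other lists the share ran from 2.94% (extracellular matrix) to 50% (metallothioneins and metal carriers, 3 of 6), with 31.2% for the lysosome list.

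Of 8 metallothioneins and metal carriers, 2 (25%) were lower, with or without untreated KO replicate 1, and both are zinc carriers. Over all genes the lower shares were 7.01% and 16.3%. SLC30A1, the zinc exporter of the plasma membrane, rose from 6.72, 5.76 and 5.74 to 43.8, 45.4 and 38.6 FPKM in WT and from 6.59, 6.05 and 5.83 to 19.4, 19.9 and 19.4 FPKM in KO cells, with a difference of -1.14 ± 0.12 [-1.09] (adjusted p = 7.59e-05). SLC39A14, a zinc and iron importer, rose in WT cells from 38.1, 36.6 and 37.2 to 71, 73 and 67.2 FPKM, while KO libraries were at 77.9, 87.6 and 87.9 FPKM before and 80.6, 81.2 and 84.4 FPKM after treatment. Its difference was -0.96 ± 0.10 [-1.01] (adjusted p = 7.59e-05). In glycolysis and hypoxia genes 3 of 31 were lower (ADM, PFKFB3 and CA9) and 2 higher (ENO2 and HK2), with 8 lower and 7 higher without untreated KO replicate 1. These shares of 9.68% and 6.45% lie near those of all genes (7.01% and 7.02%), and CA9 lost its call in 14 of 21 alternatives. ADM, the peptide hormone adrenomedullin, differed by -1.30 ± 0.20 [-1.07] (adjusted p = 0.000603).

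TGF-β and BMP signals drive the mesenchymal transition of lens epithelium. The list held their ligands, receptors, SMADs, antagonists and target genes, and markers of the transition. Of 35 tested, 8 were lower (INHBA, SMAD7, ID1, ID2, ID4, TAGLN, SNAI1 and NOG) and 3 higher (SMAD9, TGFB3 and ZEB1). These shares of 22.9% and 8.57% compare with 7.01% and 7.02% of all genes, and the higher share is near the latter. The counts were 12 and 8 without untreated KO replicate 1. ID2, a BMP-induced inhibitor of helix-loop-helix factors, rose in WT cells from 0.911, 0.444 and 0.332 to 5.8, 5.3 and 6.57 FPKM. In KO cells it was at 1.29, 0.611 and 0.735 and 0.742, 0.828 and 0.706 FPKM, inside the range of the untreated libraries, and the difference was -3.59 ± 0.46 [-3.22] (adjusted p = 0.000241). NOG, a secreted BMP antagonist, rose in WT cells (1.67, 1.49 and 1.58 to 2.96, 2.03 and 3.53 FPKM) and fell in KO cells (3.88, 3.5 and 2.6 to 1.45, 1.29 and 1.34 FPKM). Its difference was -2.13 ± 0.30 [-2.01] (adjusted p = 0.000446). SMAD9, a BMP receptor substrate, fell in WT cells and differed by 1.31 ± 0.17 [1.19] (adjusted p = 0.000262). The calls of TGFB3 and ZEB1 were lost when any 1 WT or treated KO library was left out.

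Other cell surface and matrix lists held fewer calls. In the extracellular matrix list 2 of 36 (5.56%) were lower (LOX and COL8A1) and 1 (2.78%) higher (COL1A2), below the 7.01% and 7.02% of all genes. Without untreated KO replicate 1, 10 were lower and 8 higher, shares above the 16.3% and 17.8% of all genes. COL8A1, a short-chain collagen, fell from 3.47, 3.48 and 3.7 to 1.28, 1.31 and 1.19 FPKM in WT and from 3.09, 4.01 and 4.29 to 0.702, 0.621 and 0.649 FPKM in KO cells, with a difference of -1.04 ± 0.17 [-1.16] (adjusted p = 0.00118). Among 20 matrix proteases and inhibitors, PLAU was lower (-0.94 ± 0.13 [-0.81], adjusted p = 0.000413) and MMP16 higher (1.22 ± 0.21 [1.05], adjusted p = 0.00162), with 4 lower and 3 higher when untreated KO replicate 1 was left out. With 12 libraries the shares were 5% each, below those of all genes. EGF receptor ligands and other growth factors had 3 lower (FGF1, HBEGF and IGFBP7) and 4 higher (IGFBP3, FGF5, MET and IGF1R) of 27, and 4 and 7 of 28 without that library. The 12-library shares were 11.1% lower and 14.8% higher, against 7.01% and 7.02% of all genes. The call of IGF1R was lost in 15 of 22 alternatives, other scalings among them. HBEGF, an EGF receptor ligand, rose from 6.27, 6.45 and 7.22 to 88.4, 90.5 and 78.5 FPKM in WT and from 8.92, 7.4 and 7.45 to 39.4, 38.1 and 39.9 FPKM in KO cells. The treated groups did not overlap, and the difference was -1.38 ± 0.13 [-1.29] (adjusted p = 3.06e-05). Interferon-stimulated genes had 4 lower (IRF1, OASL, GBP2 and ISG20) and 3 higher (PARP9, IFI44L and STAT2) of 30, and 6 and 8 without untreated KO replicate 1. In the fit of 12 libraries 13.3% were lower and 10% higher, against 7.01% and 7.02% of all genes. Leaving out 1 of the other libraries gave 2 to 5 lower, and ISG20 was lost with each WT or treated KO library left out. IRF1, the first interferon regulatory factor, reached 12.7, 13.6 and 11.2 FPKM in treated WT and 6.53, 6.51 and 7.13 FPKM in treated KO cells, from 2.8, 2.78 and 2.79 and 3.87, 3.89 and 3.45 FPKM, with a difference of -1.31 ± 0.12 [-1.28] (adjusted p = 2.99e-05).

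**Figure D4:**
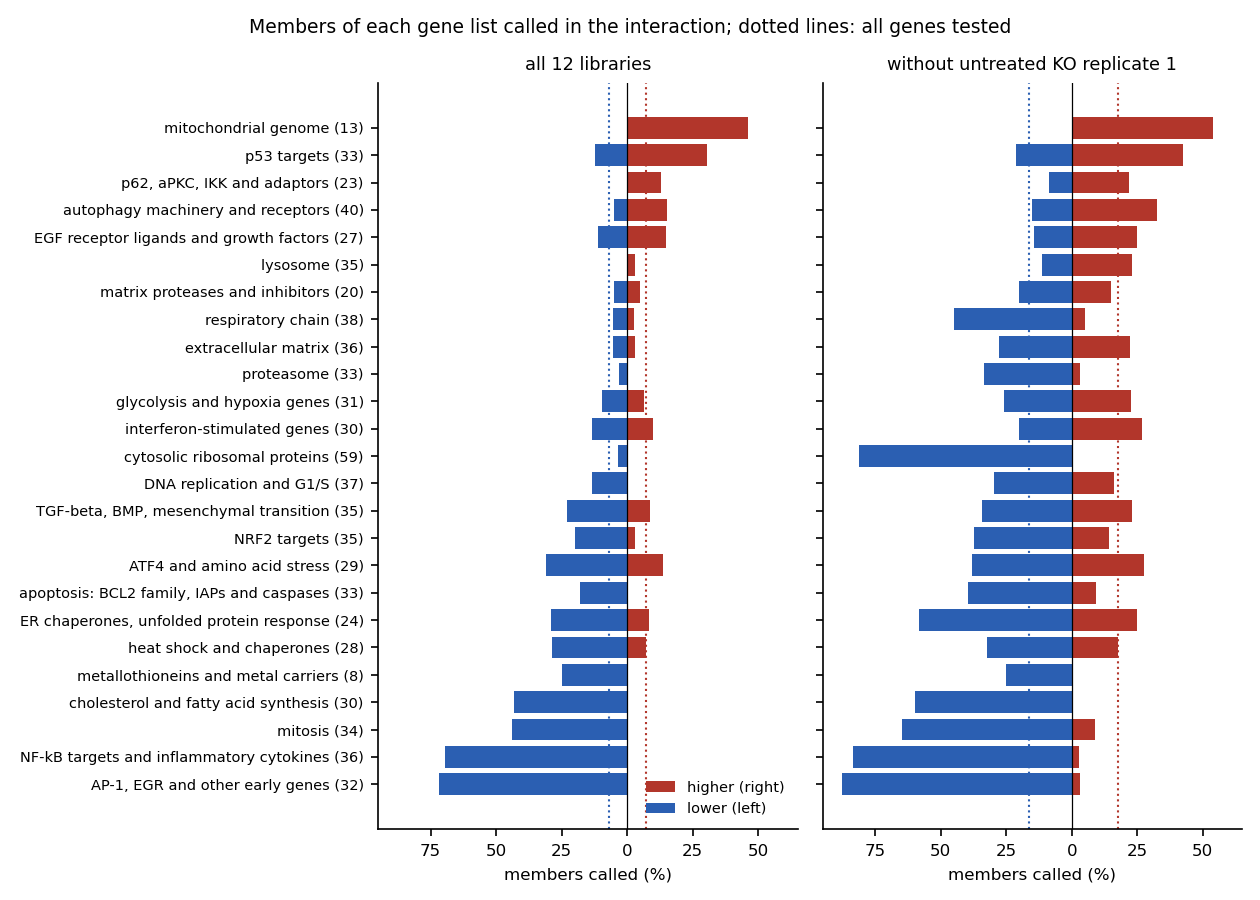
Share of the tested members of each gene list called lower (blue, left) or higher (red, right) in the interaction, in percent on the x axis, with all 12 libraries and without untreated ATG7 KO replicate 1; dotted lines give the shares over all genes tested (7.01% and 7.02%, then 16.3% and 17.8%). The early gene and NF-κB lists reach furthest to the left in the 12-library panel, and cytosolic ribosomal proteins are near 0 there and reach far left in the other panel.

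The autophagy machinery builds the autophagosome and brings cargo to it. Of 40 of its genes tested, 6 were higher (ULK2, ATG4A, PIK3R4, ATG2A, ATG2B and NBR1) and 2 lower (GABARAPL1 and ATG101), with a median difference of -0.02. These shares of 15% and 5% compare with 7.02% and 7.01% of all genes. Without untreated KO replicate 1, 13 were higher and 6 lower, and leaving out 1 of the other libraries gave 1 to 6 higher. Corrected for gene length, 3 were higher and 3 lower. ATG101, a subunit of the ULK1 initiation complex, went from 4.7, 5.23 and 5.05 to 11.1, 11.5 and 10.4 FPKM in WT and from 9.04, 6.32 and 6.25 to 7.39, 6.87 and 6.25 FPKM in KO cells. It rose in WT cells, while its KO response of -0.08 did not pass, and the difference was -1.21 ± 0.19 [-1.01] (adjusted p = 0.00073). GABARAPL1, one of the ubiquitin-like proteins that ATG7 activates, differed by -0.76 ± 0.10 [-0.7] (adjusted p = 0.000296). SQSTM1, which encodes the autophagy receptor p62, rose in both lines, from 34.4, 33 and 35 to 53, 55.6 and 53.9 FPKM in WT and from 37.7, 33.9 and 35 to 51.8, 52.1 and 53.2 FPKM in KO cells. The groups overlapped between the lines at both times, and the difference of -0.11 ± 0.09 [-0.06] did not pass (adjusted p = 0.41).

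Of 35 lysosome genes, 1 was higher, ATP6V1A (0.76 ± 0.16 [0.88], adjusted p = 0.00377), which encodes the catalytic subunit of the proton pump, and 0 lower. Lysosome calls numbered 8 higher and 4 lower without untreated KO replicate 1. With 12 libraries the higher share was 2.86%, below the 7.02% of all genes. The route that the study examined from p62 through atypical protein kinase C and the IκB kinases to NF-κB was followed by 23 genes. Of these, 3 were higher (PIDD1, TAB3 and TRAF5) and 0 lower, with a median difference of 0.05. The higher share of 13.04% compares with 7.02% of all genes. Without untreated KO replicate 1, 5 were higher and 2 lower, to be read against 17.8% and 16.3% of all genes. Corrected for gene length, 2 were higher and 1 lower. TAB3, an adaptor of the TAK1 kinase, rose from 5.27, 5.03 and 5.35 to 9.79, 9.94 and 9.68 FPKM in WT and from 5.44, 6.998 and 7.02 to 22.6, 21.6 and 21.6 FPKM in KO cells. Its difference was 0.85 ± 0.13 [0.74] (adjusted p = 0.000673). The call of TRAF5 was lost when gene length was corrected for (adjusted p = 0.0231).

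Protein-coding transcripts of the mitochondrial genome had higher responses in KO cells for 6 genes. This genome encodes 13 proteins of the respiratory chain and ATP synthase. All 13 fell in WT cells, whereas in KO cells 9 fell and 1 rose. The interaction had 6 higher (MT-ATP8, MT-ND1, MT-ND2, MT-CO1, MT-ND6 and MT-ND5) and 0 lower, with a median difference of 0.75. The higher share of 46.2% compares with 7.02% of all genes, and 7 were higher without untreated KO replicate 1. MT-ND1, a complex I subunit, went from 1639.7, 1499 and 1479 to 1226, 1200.0 and 1273 FPKM in WT and from 1326, 1549 and 1482 to 2012, 1954 and 1995 FPKM in KO cells. All treated KO libraries were above all others, and the difference was 0.77 ± 0.11 [0.72] (adjusted p = 0.000519). MT-ATP8 overlaps MT-ATP6, and MT-ND6 lies opposite MT-ND5, so their reads may be shared and their values are uncertain. The mitochondrial ribosomal RNAs, named here after their values were seen, went the other way: MT-RNR1 differed by -1.59 ± 0.21 [-1.33] (adjusted p = 0.000284) and MT-RNR2 by -0.75 ± 0.13 [-0.65] (adjusted p = 0.00126). Over all mitochondrial genes, ribosomal and transfer RNAs included, the share of counted fragments was 4.29% to 4.97% in untreated libraries of both lines, 3.54% to 3.90% in treated WT and 3.16% to 3.27% in treated KO libraries.

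For nuclear genes of ribosomes, the respiratory chain and the proteasome, the counts depended on the libraries and on the filter. Of 59 cytosolic ribosomal proteins, 2 were lower with 12 libraries (RPL26 and RPL30) and 48 without untreated KO replicate 1, with a median difference of -0.69 in the fit of 12. The median response was 0.40 in WT and -0.27 in KO cells. RPL26 was at 5.94, 6.9 and 7.24 FPKM in untreated WT, 24.9, 11.2 and 10.2 FPKM in untreated KO, 17.2, 17.5 and 17.1 FPKM in treated WT and 13.3, 11.6 and 10.8 FPKM in treated KO cells. Its replicate 1 in untreated KO cells was far above the other 2, and the difference was -1.73 ± 0.37 [-1.2] (adjusted p = 0.0045). Ribosomal protein genes have many processed pseudogenes, so their counts are uncertain. Respiratory chain genes went from 2 lower and 1 higher of 38 to 17 lower and 2 higher when the library was left out, and proteasome genes from 1 lower of 33 to 11 lower and 1 higher. With all 12 libraries and no filter on low counts, 50 ribosomal and 22 respiratory chain genes were lower, and leaving out 1 of the other libraries gave 0 to 17, 1 to 7 and 0 to 5 lower in the 3 lists. In the main fit of 12 libraries the lower shares were 3.39%, 5.26% and 3.03%, below the 7.01% of all genes.

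Gene length went along with the interaction. Ordered by length and split into 5 equal groups, genes had median differences of -0.38, -0.27, -0.06, 0.09 and 0.33 from the shortest to the longest, and -0.24, -0.15, -0.02, 0.08 and 0.23 without untreated KO replicate 1. The median length was 7170 bases for higher genes, 3683.5 for lower genes and 4410.5 for all genes tested. Within libraries, the level of the longest group minus that of the shortest (log2, relative to the mean of all libraries) was 0.19 to 0.22 in untreated WT, -0.26 to -0.24 in treated WT, -0.54 in untreated KO replicate 1 and 0.10 to 0.14 in the other 5 KO libraries. When each library was corrected for gene length, 1085 genes (6.44%) were higher and 1360 (8.07%) lower. The early gene and NF-κB lists then had 23 and 26 lower, the mitosis and cholesterol lists 13 each, and the p53 list 9 higher and 4 lower. The part that length has in each result was not tested further. Protein-coding genes made up 95.1% of the higher and 87.6% of the lower genes, against 79.8% of all genes tested.

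**Figure D5:**
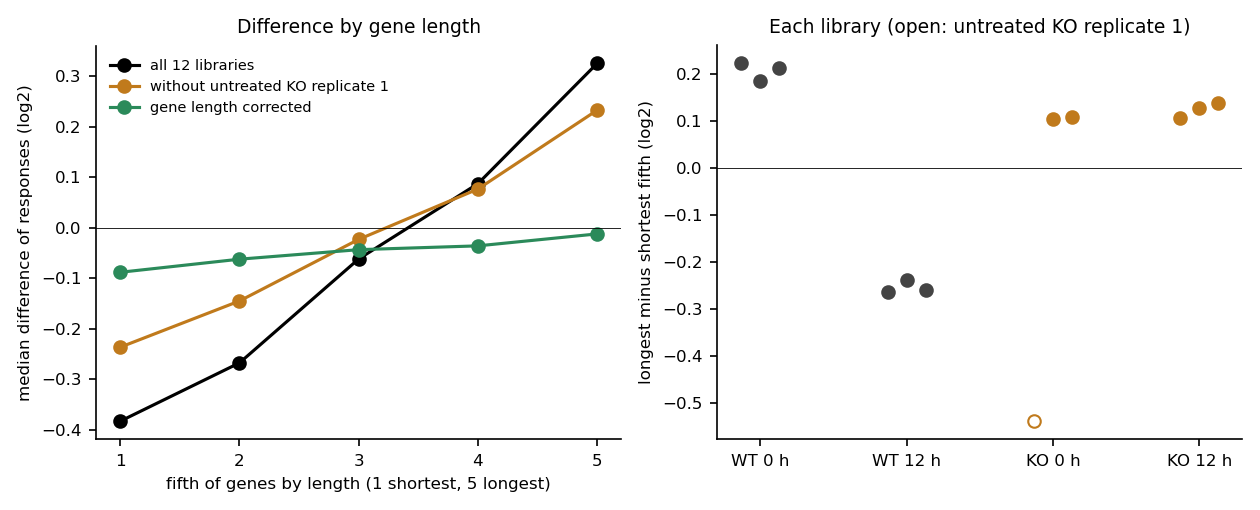
Left, median difference of responses (log2) in each of 5 equal groups of genes ordered by length, with all 12 libraries, without untreated ATG7 KO replicate 1 and with gene length corrected; right, the longest minus the shortest group (log2) in each library, with that library as an open point at -0.54. The line for 12 libraries climbs from -0.38 to 0.33 and the corrected line stays between -0.09 and -0.01.

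At the ends of the interaction, most genes were below 1 FPKM in at least 1 group, where a fitted difference depends on the prior count. Among genes above 1 FPKM in at least 1 group and called in both fits, DAPK1, a death-associated kinase, had the greatest positive difference (4.12 ± 0.27 [4.17], adjusted p = 3.84e-06). Its level was 1.65, 1.71 and 1.52 FPKM in untreated and 2.1, 2.41 and 1.89 FPKM in treated WT cells. KO libraries held 0.034, 0.0315 and 0.0303 FPKM untreated and 0.682, 0.882 and 0.673 FPKM treated, below WT at both times, so the larger response started from almost nothing (5 reads in each untreated KO library). GRHL3, an epithelial transcription factor, rose to 2.68, 2.87 and 2.97 FPKM in WT and 7.56, 7.18 and 7.02 FPKM in KO cells, with a difference of 3.99 ± 0.53 [3.51] (adjusted p = 0.000293), and untreated libraries of both lines held at most 9 reads. AL355032.1, annotated as a processed pseudogene, was an exception with reads in every group: it fell in WT cells from 25, 29.5 and 28.5 to 6.19, 6.67 and 8.36 FPKM and rose in KO cells from 10.5, 8.97 and 9.62 to 14.3, 19.6 and 27.1 FPKM (3.03 ± 0.30 [3.1], adjusted p = 4.57e-05).

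At the other end, the 4 lowest differences among the genes so chosen were those of AL078604.2, a long intergenic noncoding gene (-7.48 ± 1.23 [-6.7], adjusted p = 0.00106), C11orf96 (-6.71 ± 1.28 [-5.9], adjusted p = 0.00248), AC113410.3 (-6.08 ± 1.47 [-4.75], adjusted p = 0.00924) and SOWAHD (-5.45 ± 0.94 [-4.66], adjusted p = 0.00139). All 4 rose in WT cells from a few reads or none. C11orf96 was counted 0, 3 and 0 times in untreated and 25, 38 and 35 times in treated WT libraries, against 11, 4 and 3 times in untreated and 0, 4 and 1 times in treated KO libraries. The call of AC113410.3 was lost when any of several WT or treated KO libraries was left out.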

How the data were processed

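RNA-seq of 12 libraries (4 groups of 3) was used. The authors aligned paired reads to GRCh38 with HISAT2 2.0.5 and counted fragments per gene with featureCounts 1.5.0-p3, and the deposited count table holds these raw counts. The FPKM values were computed by the authors from such counts, with gene length and library size, and are used here for levels only. Whether strand was used in counting, and how reads matching several places were treated, is not given in the sources used here, so pseudogenes, antisense and overlapping genes and near-identical copies are uncertain.

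The counts of all libraries were fitted in R 4.3.3 with edgeR 4.0.16: filterByExpr with a minimum count of 10, TMM scaling, a group-means design and the robust quasi-likelihood test of the interaction contrast, Benjamini-Hochberg adjusted over all 16856 genes, threshold 0.01. Every adjusted p is from this test. Responses within a line and differences at each time came from the same fit. p-values measure the spread between these cultures. The code was tested on simulated data.

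Alternatives were leaving out each library, a replicate block, RLE and upper quartile scaling, no filter and a stricter filter, a gene length correction (lowess per library, span 0.3), a non-robust fit, a test against a log2 difference of 1 (glmTreat), a threshold of 0.05, DESeq2 1.42.0, and limma 3.58.1 on counts (voom with quality weights) and on log2(FPKM + 1) and log2(FPKM + 0.1).

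The interaction, the 25 gene lists and the naming rule were chosen with earlier results of these data known. The rule took genes called in both fits (with 12 libraries and without untreated KO replicate 1), with the same sign. Among those above 1 FPKM in at least 1 group, it took the 12 highest and 12 lowest differences and the 4 greatest with opposite called responses. From each list it took up to 3 highest and 3 lowest, with no FPKM limit. ATG7 and SQSTM1 were added whatever their values. The rule gave 118 genes. Members of a list are otherwise given by name only, and some named genes are not reported here. Promoters are RefSeq (GRCh38.p14), searched on both strands for the heat shock element GAANNTTC, the AP-1 site TGANTCA, the antioxidant response element TGACNNNGC, the CCAAT box and the C/EBP-ATF composite site TGATGCAA, and 11157 of 16840 symbols tested were matched.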

Additional observations from a re-analysis of the deposited data

Results flagged for a closer look

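The interaction is itself a difference between the effects of H2O2 in 2 lines, tested as an interaction term, and it passed for 1184 genes with a higher and 1182 genes with a lower response in KO cells. The next count is limited to those also called without untreated KO replicate 1 and above 1 FPKM in at least 1 group. Of these, 144 had responses of opposite sign that each passed in their own line. There were 96 that fell in WT and rose in KO cells, and 48 that rose in WT and fell in KO cells. The genes named for this pattern were SOWAHD (log2 difference -5.45 ± 0.94), LINC00622 (-4.91 ± 0.71), LINC01215 (-3.91 ± 0.34), NOG (-2.13 ± 0.30), HSPA5 (-2.06 ± 0.16), IDI1 (-1.57 ± 0.21), PLAU (-0.94 ± 0.13), MT-ND1 (0.77 ± 0.11), VLDLR (1.41 ± 0.10) and AL355032.1 (3.03 ± 0.30). PLAU, the urokinase, rose in WT (0.52) and fell in KO cells (-0.42) while it was higher in KO cells at both times. AL355032.1 carries a clone-based name and may share reads with other copies, so its value is uncertain.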

How the results depend on the processing

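With 12 libraries 2366 genes were called. No filter on low counts gave 4054 (2000 higher, 2054 lower), limma voom with quality weights 5993 (3035 and 2958), DESeq2 3703 (1791 and 1912), a threshold of 0.05 5079 (2453 and 2626), and a test against a log2 difference of 1 gave 57 (11 and 46). Leaving out 1 library gave 1332 to 5974 calls (622 to 3122 higher, 710 to 2852 lower), the largest without untreated KO replicate 1 and the smallest without treated WT replicate 1. The 871 calls with the FPKM and fold limits became 482 with log2(FPKM + 1), 572 with FPKM above 1 in all 4 groups, and 603 to 1203 without 1 library. RLE and upper quartile scaling, the stricter filter, the length correction, the non-robust fit and the FPKM fits moved the total by less than 1.5 times, to between 2264 and 2644; the cause of the larger shifts was not tested. Of the 118 named genes none reversed in any alternative in which it was tested (22 for 87 genes and 21 for the other 31). For all of them but ATG7 and SQSTM1, the same sign without untreated KO replicate 1 was part of the naming rule. The other alternatives reuse the same libraries, so they are not independent checks. Genes that lost the call when a library other than untreated KO replicate 1 was left out include GDF15, ASNS, HSPE1, OSGIN1, ATF6, ATG2A, ATP6V1A, BCL2A1, HK2, COL1A2, TGFB3, STAT2, ISG20, IGF1R, CA9, ZEB1, ORC6, RPL30, RPL26, COX6A1, MT-ND5 and TRAF5, and the length correction took ATF6, COL1A2, NDUFS1, ULK2, ATG2B, CA9 and TRAF5.

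The replicate numbers are shared between groups, but over 18 pairs of same-numbered libraries the correlation of deviations ran from -0.0691 to 0.0976 and none was over 0.1, so the numbers were not taken to pair the samples. A fit with the replicate number as a block gave 1992 calls (987 higher, 1005 lower), and 814 with the FPKM and fold limits.

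With 3 libraries per group, 1 of which stands apart, small differences could not be detected, and a missing call does not show equal responses. Depth limited genes of a few reads, for which the fitted difference depends on the prior count.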

Other observations

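Some gene families outside the lists were chosen after their values had been seen, so they are given as descriptions. Among 13 genes named as serine/arginine-rich splicing factors, which include the processed pseudogene SRSF9P1 (not called), 5 were lower (SRSF3, SRSF5, SRSF6, SRSF7 and SRSF9) and 1 higher (SRSF11). Their median difference was -0.54 against -0.03 over all genes, and 6 were lower and 1 higher without untreated KO replicate 1. Over all genes tested, 7.01% were lower and 7.02% higher, and 16.3% and 17.8% without that library. SRSF7 rose in WT cells, from 31.5, 29.7 and 29.6 FPKM to 60.5, 62.6 and 58.1 FPKM, and was at 44.9, 30.4 and 27.6 FPKM before and 27, 26.9 and 24.3 FPKM after treatment in KO cells. Its difference was -1.39 ± 0.20 [-1.15] (adjusted p = 0.000439). Desmosome genes, which hold epithelial cells together, had 4 higher (DSP, DSC2, DSC3 and DSG2) and 0 lower of 12, and 5 and 1 without that library. DSG2 was at 50.9, 46.6 and 48.6 FPKM in untreated and 48.3, 50.5 and 47.9 FPKM in treated WT cells, and at 39.9, 55.8 and 55.8 FPKM in untreated and 93.3, 96.3 and 93.4 FPKM in treated KO cells, so treated KO libraries were above all others (0.90 ± 0.16 [0.76], adjusted p = 0.00149). Keratins had 5 lower (KRT7, KRT10, KRT17, KRT80 and KRT86) and 0 higher of 15, and 7 and 0 without that library.

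Genes with the CEP name of centrosomal proteins had 13 higher and 1 lower of 39, 8 higher and 2 lower when gene length was corrected for, and 20 higher and 3 lower without untreated KO replicate 1. With 12 libraries and no length correction the shares were 33.3% and 2.56%, against 7.02% and 7.01% of all genes. The 39 include the pseudogenes CEP170P1 and CEP57L1P1 and the long intergenic noncoding gene CEP83-DT, which were not called. CEP250, which links the centrioles, fell in WT cells from 6.68, 7.19 and 7.36 to 4.63, 4.3 and 4.92 FPKM and rose in KO cells from 3.54, 6.32 and 6.26 to 9.7, 10.7 and 10.8 FPKM, with a difference of 1.57 ± 0.24 [1.34] (adjusted p = 0.00065). Among 504 ZNF zinc finger genes, 39 (7.74%) were higher and 17 (3.37%) lower, and 93 and 40 without that library. The higher share is near that of all genes. Of 741 long intergenic noncoding genes 19 (2.56%) were higher and 50 (6.75%) lower, and 33 and 85 without that library. Of 990 antisense genes 8 (0.808%) were higher and 34 (3.43%) lower, and 26 and 82 without that library, with no strand information that would tell these from the genes opposite.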
